A study of Drosophila melanogaster with 42 samples.

Results

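The ion channels and neurotransmitter receptors of Drosophila melanogaster were followed as a set through a two-colour microarray study of the sex determination hierarchy in adult heads and dissected central nervous systems (CNS). The members were the probes that match 1 of 33 listed channel and receptor genes by the array's gene symbol or its current name, together with the probes of every gene whose current symbol starts with nAChR or GluR. Of 16320 probes on the array, 57 probes of 45 genes met this rule. The prefix GluR also caught GluRS-m, a mitochondrial glutamyl-tRNA synthetase and not a receptor, and it was left out of every count below. This left 56 probes of 44 genes, of which 9 genes entered through the prefix nAChR and 5 through GluR. KCNQ, Oamb and Dop1R2 were listed but matched no probe, and 11 of the genes were read by more than 1 probe. The rule used gene names and no measured value, but the list was drawn up with earlier results of these data known.

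Nerve cells signal by opening and closing channels in their membranes. Voltage-gated sodium channels start the action potential and potassium channels end it and set how readily the cell fires again. In insects acetylcholine is the main fast excitatory transmitter of the CNS and opens nicotinic receptors, whereas GABA opens chloride channels such as Rdl and glutamate opens its own family of channels at muscle and in the brain. Serotonin and dopamine act largely through receptors coupled to G proteins, which tune circuits for courtship, aggression, feeding and sleep. In the fly hierarchy, Sex lethal directs the splicing of transformer (tra) in females, and TRA directs the sex-specific splicing of doublesex (dsx) and fruitless (fru), so that males make male DSX and, from the fru P1 promoter, the male-specific FRU proteins.

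RNA of 2 groups was labelled with Cy5 and Cy3 and hybridised together on each of 42 arrays, 32 of heads and 10 of CNS. Females were set against males in Canton-S heads (4 arrays), Berlin heads (4) and Canton-S CNS (4). Canton-S females were the comparison for XX pseudomales mutant for tra (tra1 over the deletion Df(3L)st-j7), for XX pseudomales that make only male DSX (dsxD, Sb over dsx m+r15), and for XX animals null for dsx (dsx d+r3/dsx m+r15), with 4 head arrays each; XY animals with the same dsx null combination were set against Canton-S males on 4 head arrays. Males mutant for fru P1, with allele combinations described as null or strong loss-of-function, were set against wild-type males. These were fru 4-40/p14 against Canton-S on 4 head and 3 CNS arrays, and w; fru w12/Cham5 against w; Berlin on 4 head and 3 CNS arrays. All animals were young adults, given as 0 to 24 h old in the labels and as frozen at 8 to 24 h in the protocol, and a sample pooled about 100 heads or about 20 CNS.

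Several features limit these groups as models. The wild-type strains of the fru sets are those of the channel descriptions; the array titles name w Berlin for the 4-40/p14 heads and name the strains the other way round for the CNS. The 3 XX mutants also carried y, w and a transgene with w+ and ubi-gfp that the Canton-S females lacked. The fru combinations join chromosomes with deletions around fru, so genes near fru may be present in a single copy, and fru 4-40/p14 also lacks the fru P2 transcripts. In the fru CNS set the allele combination, the wild-type strain and the dye changed together, since all w12/Cham5 samples were in Cy5 and all 4-40/p14 samples in Cy3; these cannot be told apart there. Head RNA was labelled without amplification and CNS RNA was amplified first. In whole heads or CNS, fewer cells of a type and less RNA per cell cannot be told apart. The methods describe the samples as biologically independent; the p-values below speak of the spread between them, and part of that spread may be technical.

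The deposited values were log2 ratios, turned here so that a positive value means more RNA in the group named first. An array held values for 5881 to 11900 probes. Yolk protein gene Yp1, a female product, had a positive ratio on 8 of 8 arrays of female against male heads and a negative one on 4 of 4 arrays of tra pseudomales against females, and the fru probe 7797 was negative on 6 of 6 fru CNS arrays. The channel and receptor probes were measured more often than others: 82.5% of their values were present in heads and 81.4% in CNS, against 55.9% and 54.4% over all probes. Over the probes with a gene symbol the shares were 62.0% and 61.1%. GluRIIB had no value on any array.

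The dye orientation of an array moved with the members' ratios. Between arrays of a comparison that carried the same orientation, the median correlation over channel and receptor probes was 0.73 for dsxD and 0.71 for the CNS sex comparison; between arrays of opposite orientation it was -0.21 and -0.13. In dsxD heads, 37 of 50 members had opposite signs in the 2 orientations (74.0%, against 54.7% of all probes), and in XY dsx null heads 24 of 48 had (50.0%, against 43.1%). The share also lay above that of all probes in tra (58.3%, against 50.5%) and fru heads (56.8%, against 46.4%). It equalled it in the head sex comparison (47.4% each) and lay below it in XX nulls (33.3%, against 40.0%), CNS sex (65.9%, against 72.1%) and fru CNS (77.8%, against 78.5%). Each head comparison and the CNS sex comparison held both orientations equally, so a constant dye effect cancels in the means given below for probes with values on all arrays.

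A probe was tested in a comparison when at least 75% of its arrays held a value, by limma's moderated test of the mean ratio against 0 with Benjamini-Hochberg adjustment over all tested probes, and it was called higher or lower at an adjusted p under 0.15. Over the 8 comparisons the members gave 40 calls, 35 lower and 5 higher in the group named first, from 26 probes of 24 genes. Another 28 tested probes were called in no comparison. Of all tested probes, the called share ran from 0.0602% in the CNS sex comparison to 25.7% in XY dsx nulls. In every head comparison more of all probes were called higher than lower. These shares are given with each comparison below. Arrays are numbered within a comparison, 1 to 4 for Canton-S and 5 to 8 for Berlin in the head sex comparison, and a call lost without an array is given with the highest adjusted p that resulted. The glutamate receptor subunit GluRIA was called lower in 4 comparisons and tipE, a subunit that raises sodium channel activity, in 3.

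**Figure D1:**
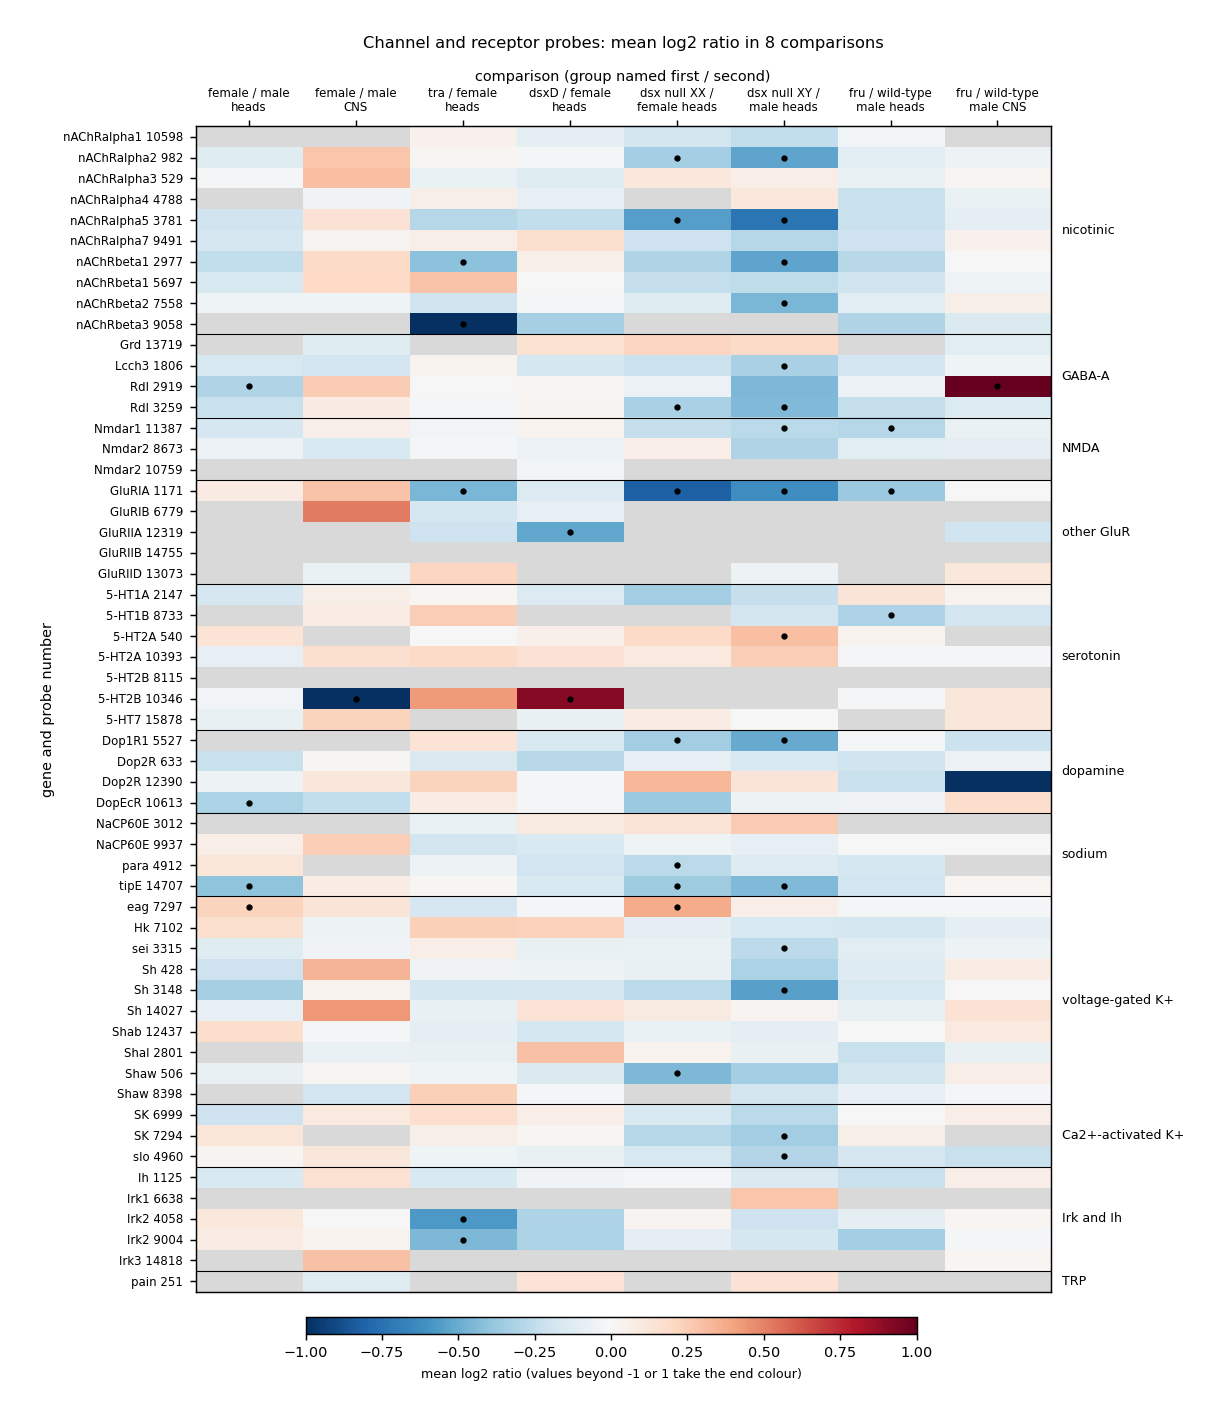
Mean log2 ratio of each channel and receptor probe (rows, grouped by role) in the 8 comparisons (columns, group named first over group named second). Blue is lower and red higher in the group named first, grey means that the probe was not tested, and a dot marks an adjusted p under 0.15. Most dots lie in the XX and XY dsx null columns, which hold 9 and 15 of the 40 calls. The called shares of all tested probes were also largest there, at 21.5% and 25.7%.

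In wild-type heads, females had 1 member higher (eag) and 3 lower (tipE, Rdl and DopEcR) than males, of 38 tested. Of all probes tested there 9.08% were called, 5.1% higher and 3.98% lower. The member median was -0.08, against -0.004 over all probes, and 28.95% of members had a positive mean, against 48.86% of all probes. Neuronal markers moved the same way: 4 of 11 were called lower in females and none higher, with a list mean of -0.505 to 0.18 on single arrays, while 5 of 8 tested muscle and 4 of 8 fat body markers were called higher. Glial markers were lower too, with 2 of 7 called and a list mean of -0.369 to -0.0895 on single arrays, and so were 1 of 8 photoreceptor and 1 of 8 fat body markers. Their part in the members' values was not tested.

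In the wild-type CNS, 1 of 44 tested members was called, the serotonin receptor gene 5-HT2B, which was lower in females. The background was 0.0602% of all probes in either direction and 0.0361% lower. The member median was 0.07, against -0.003 over all probes, and 68.18% of members had a positive mean, against 49.38% of all probes. None of the 10 tested neuronal, 7 glial, 7 photoreceptor or 5 muscle markers was called, and 1 of 7 fat body markers, fit, was higher in females (1.99, limma adjusted p = 0.000847).

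In tra pseudomale heads 5 of 48 tested probes were lower than in females and none was higher, against a background of 9.55% (5.04% higher and 4.51% lower). These were nAChRbeta3, nAChRbeta1, GluRIA and both probes of Irk2. In dsxD pseudomale heads 5-HT2B was higher and GluRIIA lower, of 50 tested, against 5.97% of all probes (3.36% higher and 2.61% lower). The member medians were -0.02 in tra and -0.04 in dsxD, against -0.001 and 0.0002 over all probes. Photoreceptor markers were called higher in 5 of 8 cases in each of these genotypes, and neuronal markers lower in 1 of 11 and 1 of 10. Of the glial and muscle markers 1 of 7 and 1 of 8 were lower in each, and of the fat body markers 4 of 8 were lower in tra and 3 of 8 in dsxD, with 1 higher in each.

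In heads without DSX more members were called, and so were more of all probes. In XX dsx nulls 8 members were lower and 1 higher than in females, of 42 tested, against a background of 21.5% (9.74% lower and 11.7% higher). In XY dsx nulls 14 were lower and 1 higher than in males, of 48 tested, against 25.7% (12.4% lower and 13.4% higher). The member medians were -0.11 in XX and -0.19 in XY nulls, against -0.01 and -0.03 over all probes. Neuronal markers again moved with them: 2 of 11 were called lower in XX and 5 of 11 in XY nulls, with list medians of -0.185 and -0.299, and Syn, which codes for the synaptic vesicle protein synapsin, fell by 0.96 in XX and by 1.27 in XY nulls. Photoreceptor markers moved the other way, with 7 of 8 called higher in each. Glial markers had 1 higher and 1 lower of 6 in XX and 2 lower of 7 in XY nulls, muscle markers 1 of 8 higher in XX and 2 of 8 lower in XY nulls, and fat body markers 3 higher and 3 lower of 8 in XX and 7 higher and 1 lower of 8 in XY nulls. What these shifts contribute to the members' ratios was not tested.

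In fru mutant heads 3 of 44 tested members were lower than in wild-type males and none was higher, against 11.6% of all probes (6.77% higher and 4.86% lower). The calls were the serotonin receptor gene 5-HT1B, Nmdar1 and GluRIA. The member median was -0.15, against -0.005 over all probes, and 13.64% of members had a positive mean, against 48.61% of all probes. Neuronal marker probes had a median of -0.175, with 2 of 9 called lower, both of them probes of the gene ChAT. Glial markers had a median of -0.111, with 2 of 7 called lower. Of the muscle markers 4 of 8 were called higher, both probes of Tm2 among them, and so were 2 of 8 photoreceptor markers. Of the fat body markers 1 of 6 was lower. In the fru mutant CNS 1 of 45 members was called, Rdl, and it was higher in the mutants, against 0.269% of all probes (0.187% higher and 0.082% lower); the member median was -0.01, and no marker of neurons, glia, photoreceptors, muscle or fat body was called.

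The serotonin receptors gave the largest CNS sex difference of the set. Probe 10346 of 5-HT2B, which codes for a receptor of the type that signals through phospholipase C, had ratios of -1.92, -2.94 and -2.32 on arrays 1, 2 and 4 of Canton-S female against male CNS and no value on array 3. All 3 values were far below 0, in both dye orientations. The mean was -2.39 (limma SE 0.239, adjusted p = 0.00293), 5.25-fold lower in females. In wild-type heads the same probe ran between -0.52 and 0.73 with a median of -0.07 over 7 arrays. Its mean there was -0.03 (SE 0.13, adjusted p = 0.937), with 3 arrays above and 4 below 0. The other 5-HT2B probe, 8115, had no value on the CNS arrays of this comparison and was tested nowhere, so the CNS difference rests on 1 probe and 3 arrays, and leaving out any of the 3 left it untested.

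The 5-HT2B ratio was positive in both kinds of XX pseudomale heads. In dsxD against female heads the 4 arrays gave 0.23, 0.85, 1.23 and 1.35. All were positive, with a mean of 0.91 (SE 0.19, limma adjusted p = 0.0687), 1.88-fold higher in dsxD, and the call was lost without array 2, 3 or 4 (up to 0.236). In tra against female heads the arrays gave 0.87, -0.06 and 0.47, with no value on array 1, a mean of 0.43 and an adjusted p of 0.327. The probe had too few values to be tested in the dsx nulls. In fru mutant heads it had no common direction: it was negative on the 4 arrays of fru 4-40/p14 and positive on the 4 of fru w12/Cham5.

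**Figure D2:**
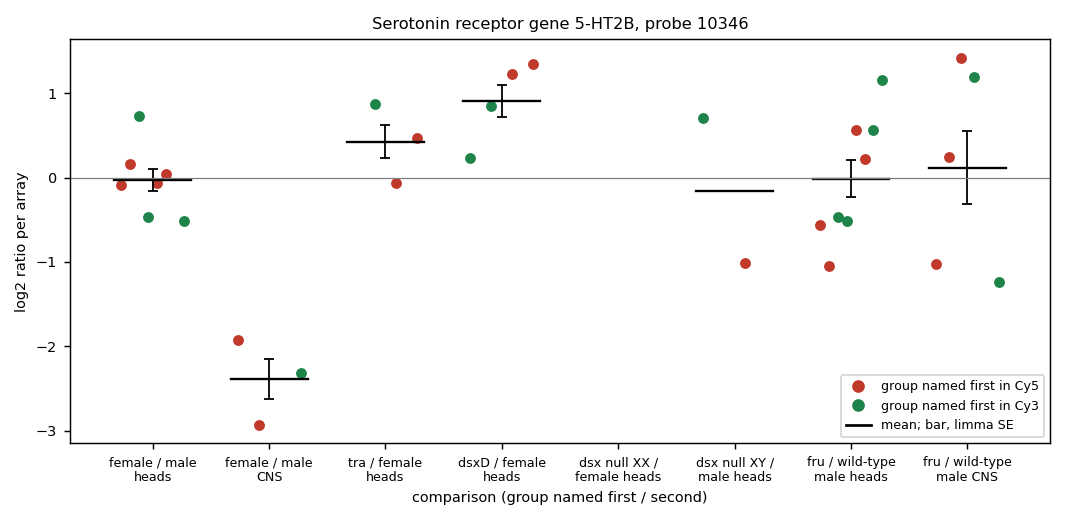
Log2 ratio of 5-HT2B (probe 10346) on each array (points; colour gives the dye of the group named first) for the 8 comparisons, with the mean and, where the probe was tested, the limma standard error. The 3 CNS female over male values lie between -2.94 and -1.92, whereas the 7 head values lie between -0.52 and 0.73.

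Among the other serotonin receptors, 5-HT1B, a receptor that lowers cyclic AMP, was lower in fru mutant heads. Its ratios ran between -0.68 and 0.10 with a median of -0.34 over 8 arrays, and 7 of the 8 were negative. The mean was -0.31 (SE 0.0856, limma adjusted p = 0.0701), 1.24-fold lower in the mutants, and was still called without each array in turn. 5-HT2A probe 540 was higher in XY dsx null than in male heads, at 0.50, 0.15, 0.31 and 0.24 on the 4 arrays. Its mean was 0.30 (limma adjusted p = 0.11; lost without array 1, 3 or 4, up to 0.253), and the second 5-HT2A probe, 10393, averaged 0.25 (adjusted p = 0.157). 5-HT1A and 5-HT7 were called nowhere.

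The nicotinic acetylcholine receptor subunits gave 8 calls, all lower in the group named first and all in tra or dsx mutant heads. The largest was that of nAChRbeta3 in tra pseudomales, whose ratios against females were -0.71, -1.005, -1.47 and -0.95. All 4 were negative, in both dye orientations. The mean was -1.035 (SE 0.144, limma adjusted p = 0.00359), 2.05-fold lower in tra, and the probe was still called without each array in turn (highest adjusted p 0.0156). In dsxD against female heads nAChRbeta3 gave -1.10, -0.23, 0.13 and -0.13, so that 1 array carried most of its mean of -0.33 (adjusted p = 0.553). The difference between the tra and dsxD ratios was -0.71 and did not pass the test (adjusted p = 0.77).

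Among the alpha subunits, which carry the acetylcholine site, nAChRalpha5 was lower in both kinds of dsx null. It gave -0.28, -0.31, -0.89 and -0.73 in XX nulls against females and -0.36, -0.48, -0.99 and -1.09 in XY nulls against males. In each set all arrays were negative and the 2 arrays with the mutant in Cy5 lay lowest. The means were -0.55 in XX nulls (adjusted p = 0.0408) and -0.73 in XY nulls (adjusted p = 0.022), where it was 1.66-fold lower, and both calls were kept without each array in turn. nAChRalpha2 gave -0.35, -0.31 and -0.36 on the 3 XX null arrays with a value and -0.39, -0.55, -0.42 and -0.75 in XY nulls. These values were close together, with means of -0.34 (adjusted p = 0.106) and -0.53 (adjusted p = 0.0213). nAChRbeta2 was called in XY nulls alone, at -0.57, -0.48 and -0.33 with no value on array 2, a mean of -0.46 and an adjusted p of 0.0611. Its mean in XX nulls was -0.12. The XX call of nAChRalpha2 and the XY call of nAChRbeta2 could not be tested without any 1 of their 3 measured arrays.

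The probes of nAChRbeta1 did not move together. Probe 2977 was lower in tra heads, at -0.29, -0.10, -0.62 and -0.62 (mean -0.41, limma adjusted p = 0.145), whereas probe 5697 gave 0.13, 0.35, 0.40 and 0.25 on the same arrays (mean 0.28, adjusted p = 0.263). Every array of the first was negative and every array of the second positive, so the gene has no settled direction in tra. The tra call was also lost without array 1, 3 or 4 (adjusted p up to 0.398). In XY dsx nulls probe 2977 gave -0.13, -0.22, -0.77 and -0.98, with a mean of -0.53 (adjusted p = 0.0819), and lost its call without array 3 or 4 (up to 0.265). Probe 5697 averaged -0.25 there (adjusted p = 0.187).

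Rdl codes for the main subunit of the GABA-gated chloride channel and is the target of cyclodiene insecticides. Probe 2919 had ratios of 1.37, 1.59 and 2.15 in the CNS of fru w12/Cham5 against w; Berlin males and of 0.74, 0.80 and 1.01 in the CNS of fru 4-40/p14 against Canton-S males. All 6 were positive and the w12/Cham5 values lay above the 4-40/p14 values without overlap. The mean was 1.28 (SE 0.189, limma adjusted p = 0.0843), 2.425-fold higher in the mutants. The direction held without each array in turn, at 1.10 to 1.385, but the call was lost whichever of the 6 arrays was left out (adjusted p 0.198 to 0.401).

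The second Rdl probe, 3259, did not follow. It gave 0.41, -0.33 and 0.66 in the w12/Cham5 CNS and -0.44, -0.47 and -0.63 in the 4-40/p14 CNS. The signs differed between the allele combinations, and the mean over all 6 arrays was -0.13 (adjusted p = 1). The probes thus stood 1.41 log2 units apart in the fru CNS, the widest gap of any gene with several tested probes in any comparison, where the median gap was 0.129.

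**Figure D3:**
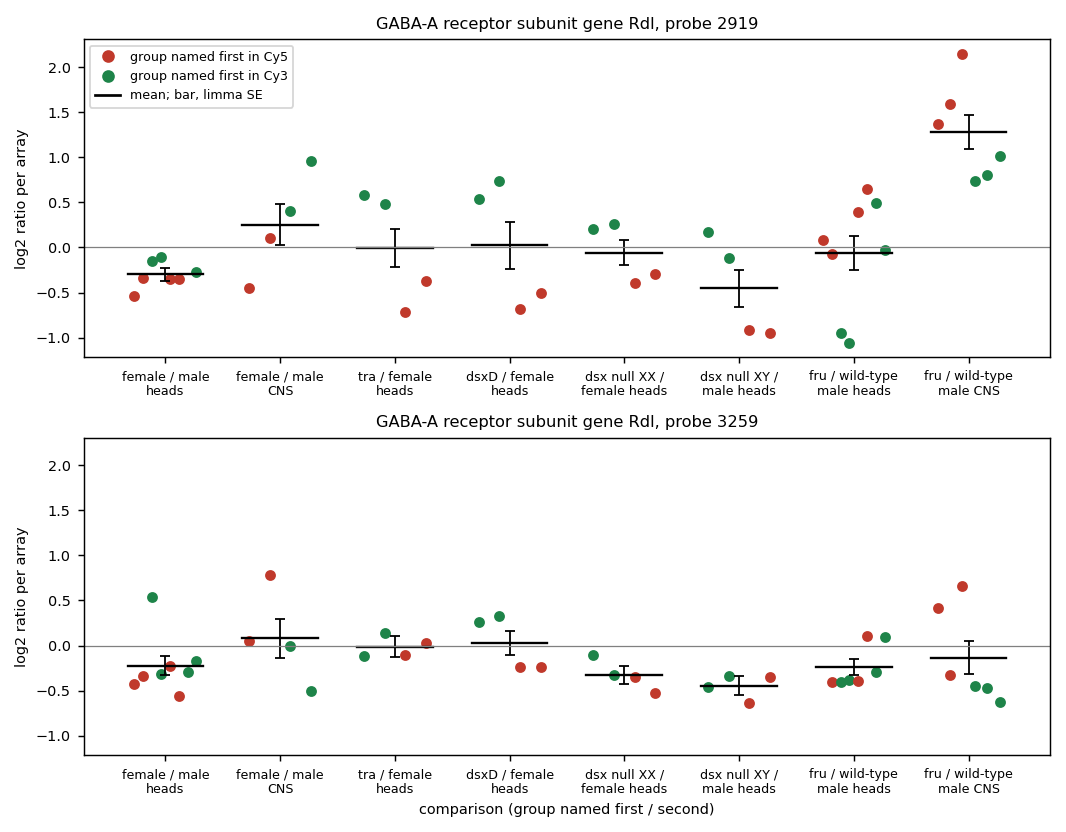
Log2 ratio per array of the 2 Rdl probes, 2919 (upper panel) and 3259 (lower panel), in the 8 comparisons, with means and limma standard errors; colour gives the dye of the group named first. Probe 2919 is positive on all 6 fru CNS arrays (0.74 to 2.15), and probe 3259 is positive on 2 and negative on 4 of them.

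In heads Rdl was called only lower among the 8 comparisons, and its means in dsxD heads were near 0 (0.02 for probe 2919 and 0.03 for 3259). In females against males probe 2919 ran between -0.54 and -0.11 with a median of -0.33, negative on all 7 arrays with a value. The mean was -0.30 (SE 0.0729, limma adjusted p = 0.0536), 1.23-fold lower in females, and was not called without Canton-S array 1 (adjusted p = 0.155). Probe 3259 averaged -0.23 (adjusted p = 0.275). In the dsx nulls it was probe 3259 that passed: -0.10, -0.32, -0.35 and -0.53 in XX nulls against females and -0.46, -0.34, -0.64 and -0.35 in XY nulls against males. The means were -0.33 (adjusted p = 0.0951) and -0.44 (adjusted p = 0.0331), and the XX call was lost without array 2, 3 or 4 (up to 0.28). Lcch3, another GABA-gated channel subunit, was lower in XY nulls at -0.11, -0.48, -0.415 and -0.30, with a mean of -0.33 (adjusted p = 0.0938; lost without array 2, 3 or 4, up to 0.245). Grd was called nowhere.

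GluRIA, a subunit of the AMPA and kainate class of glutamate channels, was the member called most often. In XX dsx nulls against females it gave -0.84, -0.94, -0.71 and -0.78, a narrow range with every array well below 0. Its mean was -0.82 (SE 0.0914, limma adjusted p = 0.00192), 1.76-fold lower in XX nulls. In XY nulls against males the arrays gave -0.46, -0.80, -0.84 and -0.40, with a mean of -0.62 (SE 0.118, adjusted p = 0.0167), 1.54-fold lower. Both calls were kept without each array in turn. In tra pseudomales against females it gave -0.66, -0.32, -0.57 and -0.27 (mean -0.46, adjusted p = 0.0757), and this call was lost without array 1 or 3 (up to 0.272). In fru mutant heads the arrays of 4-40/p14 gave -0.43, -0.67, -0.69 and -0.44, and those of w12/Cham5 gave -0.13 and 0.13 with no value on the other 2. The fru mean was -0.37 (adjusted p = 0.124) and came from the 4-40/p14 arrays, since the w12/Cham5 values lay on either side of 0. Leaving out any of its 6 arrays left it untested. In the CNS GluRIA averaged 0.28 in females against males and -0.005 in fru mutants against wild-type males (adjusted p = 1 each).

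GluRIIA, a subunit of the receptor at the neuromuscular junction, was lower in dsxD heads, at -0.72, -0.39 and -0.46 with no value on array 3 (mean -0.52, adjusted p = 0.133). Without array 3, which lacked a value for it, the adjusted p was 0.167, and without any of the others it could not be tested. GluRIB had the highest mean among CNS sex ratios, 0.52 from 0.68, 0.79 and 0.10, and did not pass (adjusted p = 1). Nmdar1, the obligatory subunit of the NMDA receptor, was lower in fru mutant heads, with ratios between -0.57 and 0.11, a median of -0.30 and 6 of 7 negative. The mean was -0.29 (SE 0.0851, limma adjusted p = 0.0963), and the call was lost without array 1, 3, 4, 5 or 7 (up to 0.189). In XY nulls Nmdar1 gave -0.08, -0.24, -0.38 and -0.38 (mean -0.27, adjusted p = 0.143; lost without array 2, 3 or 4, up to 0.384).

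The dopamine receptors gave 3 calls, all lower. Dop1R1, which raises cyclic AMP and is needed for olfactory learning, gave -0.41, -0.15, -0.57 and -0.24 in XX nulls against females and -0.42, -0.61 and -0.49 in XY nulls against males. The means were -0.34 (adjusted p = 0.0863; lost without array 1, 3 or 4, up to 0.193) and -0.50 (adjusted p = 0.0445). Without any 1 of its 3 measured arrays the XY call could not be tested. DopEcR, which responds to both dopamine and ecdysteroids, was lower in female than in male heads. Its ratios ran between -0.72 and -0.0004 with a median of -0.22 and were negative on all 8 arrays. The mean was -0.31 (SE 0.0894, limma adjusted p = 0.0867), and the call was lost without Canton-S array 1 or 2 or Berlin array 6 or 7 (up to 0.205).

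Dop2R, the inhibitory dopamine receptor, had the lowest mean of the fru CNS set but was not called. Probe 12390 gave -1.74, -1.33 and -1.315 in w12/Cham5 against w; Berlin and -0.24, -0.44 and -0.89 in 4-40/p14 against Canton-S, negative on 6 of 6 arrays. The mean was -0.99 (SE 0.2, limma adjusted p = 0.268), and with a term for dye orientation, which there is also a term for allele and strain, the adjusted p was 0.00984. The second Dop2R probe, 633, averaged -0.06 in the same CNS arrays (adjusted p = 1).

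Of the sodium channel genes, tipE gave the firmest head sex difference of the set. In females against males its ratios ran between -0.70 and 0.06 with a median of -0.49, and 7 of 8 were negative. The mean was -0.41 (SE 0.0938, limma adjusted p = 0.042), 1.325-fold lower in females, and the call was kept without each array in turn. Within a strain it averaged -0.47 in Canton-S (adjusted p = 0.335) and -0.34 in Berlin (adjusted p = 0.231), on 4 arrays each. In the dsx nulls tipE gave -0.31, -0.12, -0.58 and -0.42 in XX animals and -0.14, -0.18, -0.55 and -0.89 in XY animals. All 8 were negative, with means of -0.36 (adjusted p = 0.0818) and -0.44 (adjusted p = 0.0992), and each call was lost without array 3 or 4 (up to 0.221 in XX and 0.317 in XY nulls). The channel gene itself, para, gave -0.16, -0.40, -0.39 and -0.13 in XX nulls (mean -0.27, adjusted p = 0.134; lost without any 1 of the 4 arrays, up to 0.272). In XY nulls para averaged -0.13 (adjusted p = 0.475). NaCP60E was called nowhere.

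The voltage-gated potassium channels gave 2 of the 5 higher calls, both of eag. This gene, named for the leg shaking of its mutants under ether, ran between -0.15 and 0.42 with a median of 0.30 in females against males, positive on 7 of 8 arrays. The mean was 0.23 (SE 0.0774, limma adjusted p = 0.145), and the call was lost without Canton-S array 1, 2 or 3 or Berlin array 7 or 8 (up to 0.301). In XX nulls against females eag gave 0.54, 0.44, 0.03 and 0.48 (mean 0.37, adjusted p = 0.0866; lost without array 1, 2 or 4, up to 0.239). Shaw probe 506 was lower in XX nulls, at -0.49, -0.20, -0.64 and -0.46 (mean -0.45, adjusted p = 0.039), and was still called without each array in turn. It averaged -0.34 in XY nulls (adjusted p = 0.309).

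Shaker (Sh), the channel of the fast transient current, was lower in XY nulls by probe 3148. The arrays gave -0.02, -0.32, -0.87 and -0.98, so the 2 arrays with the mutant in Cy5 carried the mean of -0.55 (adjusted p = 0.0886; lost without array 3 or 4, up to 0.287). The other Sh probes averaged -0.32 (428, adjusted p = 0.158) and 0.03 (14027, adjusted p = 0.941) there. In female against male heads probe 3148 averaged -0.34 and did not pass (adjusted p = 0.213), although the Berlin arrays alone gave -0.56 (adjusted p = 0.109). In the CNS probe 14027 averaged 0.44 in females against males, positive on 4 of 4 arrays, and did not pass either (adjusted p = 1). sei, a channel of the erg class, was lower in XY nulls at -0.31, -0.11, -0.25 and -0.37 (mean -0.26, adjusted p = 0.139; lost without any 1 array, up to 0.384).

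Both calcium-activated potassium channel genes were called in XY dsx nulls, where they were lower, and in no other comparison. SK, the small-conductance channel, gave 0.04, -0.49, -0.55 and -0.40 with probe 7294 (mean -0.35, adjusted p = 0.125), and slo, the large-conductance channel, gave -0.13, -0.44, -0.39 and -0.21 (mean -0.29, adjusted p = 0.117). Each was lost without array 2, 3 or 4, at adjusted p up to 0.311 for SK and 0.286 for slo. In XX nulls the means were -0.28 for SK probe 7294 and -0.16 for slo, which did not pass. Irk2, an inwardly rectifying potassium channel, was lower in tra pseudomale heads by both of its probes. Probe 4058 gave -0.99, -0.69, -0.56 and -0.06 against females, and probe 9004 gave -0.54, -0.54, -0.51 and -0.19. All 8 values were negative, and array 4 was nearest to 0 for both probes. The means were -0.57 (limma adjusted p = 0.0772) and -0.45 (adjusted p = 0.0764), and both calls were lost without array 1, 2 or 3 (up to 0.254 and 0.243). Irk2 was the only gene with several probes called in a comparison. Ih, Irk1, Irk3 and the TRP channel gene painless were called nowhere.

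The 2 dsx null sets were compared directly because each removes DSX from an otherwise different sex. Of the members lower in XX nulls (8) and in XY nulls (14), 6 were lower in both, which is 75% of the first and 42.9% of the second; over all probes 469 were lower in both, 56% of those lower in XX and 46.2% of those lower in XY nulls. These were GluRIA, nAChRalpha5, nAChRalpha2, Dop1R1, Rdl (probe 3259) and tipE. Of 42 members tested in both, 30 were negative in both (71.4%, against 42% of all probes) and 34 were more negative in XY nulls (81%, against 51%). The difference XX less XY passed the limma test for 0 of 42 members (0 at an unadjusted p under 0.05), against 0.751% of all probes. Single arrays were uneven in XY nulls, where the median over members was 0.14, -0.11, -0.47 and -0.35 on arrays 1 to 4 and the mutant was in Cy3 on the first 2. In XX nulls the medians were 0.03, -0.11, -0.31 and -0.14.

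**Figure D4:**
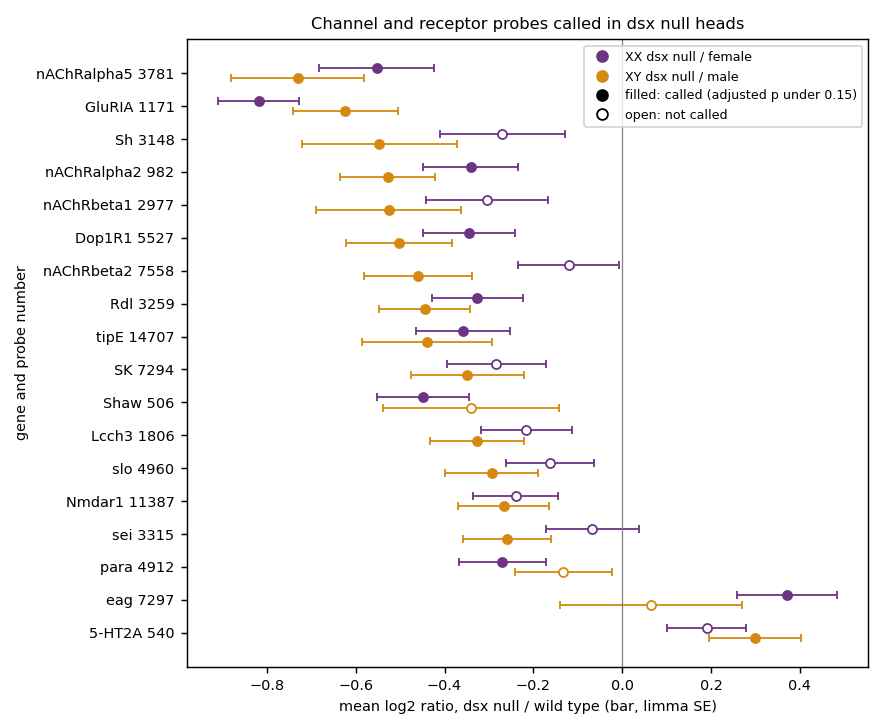
Mean log2 ratio with limma standard error of each channel or receptor probe called in XX dsx null against female heads or in XY dsx null against male heads (4 arrays each); filled points were called. Of the 18 probes shown, 16 lie below 0 in both sets, and GluRIA is the lowest in XX nulls (-0.82) and nAChRalpha5 the lowest in XY nulls (-0.73).

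The fru allele combinations gave different pictures in heads. There 14 of 42 members differed between fru 4-40/p14 and fru w12/Cham5, 12 lower and 2 higher in 4-40/p14, where 23.9% of all probes differed (12% lower and 11.9% higher). The median difference was -0.32 over members and 0.02 over all probes. In 4-40/p14 against Canton-S, 38 of 42 members were negative (90.5%, against 47.7% of all probes) with a median of -0.341, and in w12/Cham5 against w; Berlin 23 were negative (54.8%, against 52.7%) with a median of -0.001. Of the 14, 13 had opposite signs in the 2 combinations (92.9%, against 81.9% of all called probes) and 6 did not overlap between them (42.9%, against 75.6% of all called probes). By the channel descriptions the combinations had different wild-type strains, while the array titles name w Berlin for both, so a part of strain in these differences cannot be told apart from the allele. Photoreceptor markers differed too, with 5 of 8 higher in 4-40/p14 and none lower. Neuronal marker probes were mixed: of 9, 2 were higher, both of them probes of ChAT, and 1 was lower, that of Syn. Of 7 glial markers 2 were lower, both probes of repo (-0.84 and -0.59), of 7 muscle markers 1 was lower and of 5 fat body markers 2 were higher; their part was not tested.

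The largest of these differences was that of 5-HT2B, which gave -0.56, -1.05, -0.46 and -0.52 in 4-40/p14 and 0.56, 0.22, 0.56 and 1.16 in w12/Cham5. The sets did not overlap and differed by -1.27 (SE 0.204, limma adjusted p = 0.00235). 5-HT2A went the other way: probe 10393 gave 0.20, 0.45, 0.38 and 0.32 in 4-40/p14 and -0.48, -0.28, -0.45 and -0.24 in w12/Cham5, a difference of 0.70 (SE 0.121, adjusted p = 0.00386). Its probe 540 differed by 0.39 (adjusted p = 0.113), so both probes of this gene were higher in 4-40/p14.

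Shab, which carries the delayed rectifier current, gave -0.32, -0.60, -0.61 and -0.31 in 4-40/p14 and -0.01, 0.71, 0.15 and 1.03 in w12/Cham5. It differed by -0.93 (SE 0.216, limma adjusted p = 0.0168), with no overlap. nAChRalpha3 gave -0.43, -0.39, -0.34 and -0.24 in 4-40/p14 and 0.28, 0.31, 0.27 and 0.00 in w12/Cham5, a difference of -0.57 (SE 0.121, adjusted p = 0.0117). Rdl probe 2919 gave 0.08, -0.07, -0.95 and -1.06 in 4-40/p14 and 0.40, 0.65, 0.49 and -0.03 in w12/Cham5, which overlapped; the 2 lowest were the arrays with the mutant in Cy3. Its difference was -0.87 (adjusted p = 0.0509). These calls and that of Shaw probe 8398 (-0.72, adjusted p = 0.0321) were kept without each array in turn.

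The other differences were -0.69 for Irk2 probe 4058 (adjusted p = 0.0964), -0.64 for eag (adjusted p = 0.0798), -0.58 for Dop1R1 (adjusted p = 0.0638) and -0.54 for Nmdar2, a modulatory NMDA receptor subunit (adjusted p = 0.0912). nAChRalpha4 differed by -0.51 (adjusted p = 0.112), para by -0.49 (adjusted p = 0.119) and slo by -0.32 (adjusted p = 0.143). Dop1R1 stayed called for 5 of the 8 arrays left out in turn and could not be tested for the other 3. For eag, too, 3 left-out arrays left it untested. Apart from Dop1R1, each of these, and 5-HT2A probe 540, lost its call for at least 1 left-out array among arrays 1 to 4 of 4-40/p14 and 5 to 8 of w12/Cham5. They were array 8 for eag (0.175), arrays 1, 2, 3 and 7 for Irk2 (up to 0.195), arrays 3, 4, 6 and 8 for Nmdar2 (up to 0.208), arrays 2, 3, 4, 6 and 8 for nAChRalpha4 (up to 0.24), arrays 1, 2, 3, 7 and 8 for para (up to 0.251), arrays 1, 2, 3, 5, 7 and 8 for 5-HT2A probe 540 (up to 0.234) and every array but 2 for slo (up to 0.293).

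**Figure D5:**
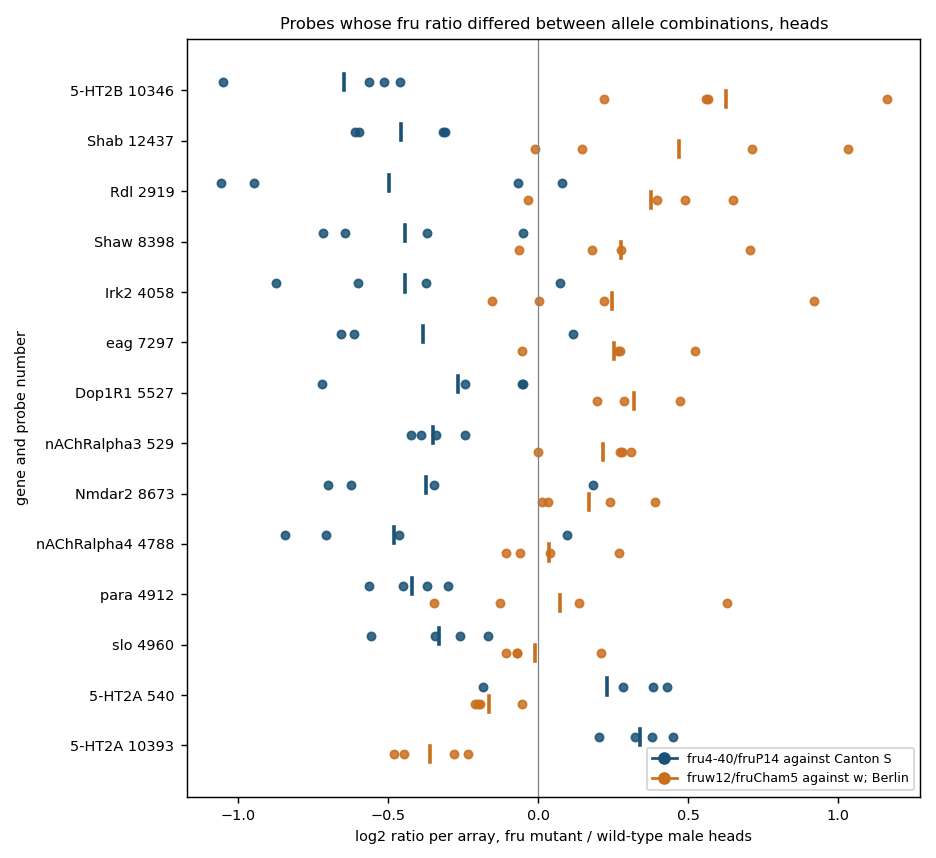
Log2 ratio on each head array (points) and mean (bars) of the 14 probes whose fru mutant over wild-type male ratio differed between fru 4-40/p14 (blue, against Canton-S) and fru w12/Cham5 (orange, against w; Berlin). For 12 probes the 4-40/p14 mean lies to the left; for both 5-HT2A probes it lies to the right.

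CNS and heads were compared by the difference between their ratios. For the sex difference in Canton-S, 1 of 35 members differed, 5-HT2B, whose female over male ratio was lower in the CNS than in heads by -2.475 (SE 0.316, limma adjusted p = 0.00287); 0.13% of all probes differed, 0.0325% higher and 0.0976% lower. For the fru effect 1 of 40 members differed, Rdl probe 2919, higher in the CNS by 1.34 (SE 0.287, adjusted p = 0.0559), where 0.973% of all probes differed and 0.412% were higher. The call of probe 2919 was kept without each of the 14 arrays in turn (highest adjusted p 0.147). The second Rdl probe, 3259, was higher in the CNS by only 0.10 and did not pass (limma adjusted p = 0.991). Of the 40 members 34 had the higher ratio in the CNS, 85%, against 50.34% of all probes. The tra effect less the dsxD effect was called for 0 of 46 members (1 at an unadjusted p under 0.05), against 0.417% of all probes.

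Genes read by several probes gave a measure of how well a single probe stands for its gene. In 63 cases a gene had several tested probes in a comparison, and their means had the same sign in 42 and opposite signs in 21. In 9 cases 1 probe was called and the other was not. Position on the X, where 10 of the genes and 15 of the probes lie, was also read: in female against male heads 1 of 14 tested X probes was higher and none lower, and of 24 autosomal probes none was higher and 3 lower. Of all tested probes 12.2% were called on the X and 8.65% on autosomes. The members had too few calls to be set against these shares.

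A further list of channels and receptors of the same kinds outside the rule (88 genes, 72 probes) was read for comparison. In dsx nulls 8 of 51 tested probes were lower and 2 higher in XX nulls, and 14 of 48 lower and 4 higher in XY nulls. Of all tested probes 9.74% were lower and 11.7% higher in XX nulls, and 12.4% lower and 13.4% higher in XY nulls. wtrw, a TRP channel gene that serves hygrosensation, had the lowest adjusted p of this list in both nulls. Its ratio was -1.06 in XX nulls (limma adjusted p = 0.00134) and -1.28 in XY nulls (adjusted p = 0.000344). In dsxD heads it was -1.001 (adjusted p = 0.00641). Its tra ratio stood above its dsxD ratio by 1.07 (adjusted p = 0.0199). unc79, a subunit of the sodium leak channel complex, was lower in both dsx nulls (-0.52, adjusted p = 0.0133, in XX and -0.55, adjusted p = 0.024, in XY). Slob, which codes for a partner of the slo channel, was higher in both (0.58, adjusted p = 0.00954, and 0.41, adjusted p = 0.0532). So was Ekar (0.69, adjusted p = 0.0154, and 0.51, adjusted p = 0.0275). Between fru 4-40/p14 and fru w12/Cham5 heads, 9 of 40 tested probes were lower and 4 higher in 4-40/p14. Of all tested probes 12% were lower and 11.9% higher there. unc79 differed by -1.89 (adjusted p = 0.00118) and Slob by 0.99 (adjusted p = 0.00172).

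In wild-type heads 1 of 44 probes of this list was higher in females, Octalpha2R, an octopamine receptor gene (0.48, limma adjusted p = 0.0462), and 5 were lower, among them Slob (-0.35, adjusted p = 0.0627). In tra heads Ekar was higher (1.11, adjusted p = 0.0173) and the chloride channel gene ClC-a lower (-0.69, adjusted p = 0.0327), of 53 tested. In fru mutant heads 2 of 46 were higher and 6 lower. The higher ones were Best1 (0.38, limma adjusted p = 0.033) and Best2 (0.29, adjusted p = 0.0994). Among the lower ones were unc80, another subunit of the sodium leak complex (-0.78, adjusted p = 0.04), and the potassium channel gene Task6 (-0.41, adjusted p = 0.0572). None of the 45 probes tested in the CNS sex comparison or the 49 tested in the fru CNS was called. Of all tested probes 9.08% were called in wild-type heads, 9.55% in tra heads and 11.6% in fru mutant heads. The shares were 0.0602% in the CNS sex comparison and 0.269% in the fru CNS.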

How the data were processed

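Total RNA of whole heads, or amplified RNA of dissected CNS, was hybridised to two-colour oligonucleotide arrays. The deposited log2 ratios had been filtered by the authors to features with most pixels above background and lowess-normalised with Bioconductor in R; the images were read with Genepix. Depth is not defined for arrays, and the number of arrays limits the precision. Groups were taken from the channel descriptions, since the titles of the fru 4-40/p14 head arrays and of all fru CNS arrays name another wild-type strain. Each ratio was turned to the group named first over the group named second, with the direction checked on Yp1 and fru.

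Each comparison was fitted with limma 3.58.1 in R 4.3.3 (lmFit and eBayes, mean against 0, two-sided) over the probes that held values on 75% of its arrays or more, with Benjamini-Hochberg adjustment and a threshold of 0.15, the level the methods use; no background correction or normalisation was added. Differences between 2 comparisons were fitted as a contrast of the 2 sets of arrays. The fitting code was tested on simulated data. Gene symbols came from the platform's probe table (12913 probes with 1 symbol, 3407 unnamed here), updated through the current gene table where it matched (12389 probes).

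The members, the lists of markers and of other channels, and the tests were chosen with earlier results of these data known. Named were the members that passed the threshold in any comparison or difference, in each comparison the 3 tested members with the largest absolute mean, and 5-HT2B and Rdl; from the list of other channels at most 4 called genes per comparison. Same-numbered arrays were checked for pairing by the correlation of their deviations. It was 0.176 to 0.423 for tra with dsxD and 0.273 to 0.434 for XX with XY dsx nulls, each above 0.1. The reported differences of tra less dsxD and XX less XY were nevertheless fitted without pairs. Pairing by number entered them only through the replicate block, an alternative setting. Same-numbered arrays there share the dye orientation, and other-numbered arrays of the same orientation correlated alike (0.389 to 0.483 and 0.167 to 0.398), so number and dye cannot be told apart; for CNS with heads the lowest was -0.193 for the sex difference and -0.171 for fru, and those numbers were not taken as pairs. Alternatives were a dye term, values on every array, median centring, a one-sample test as the methods name, single strains or allele combinations, a replicate block and each array left out in turn. No sequence or coordinate is given.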

Additional observations from a re-analysis of the deposited data

Results flagged for a closer look

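Among 43 groups of 4 or more arrays examined for an array far from the rest, 2 were flagged (4.65%), and chance alone flags about 1 in 20. Irk2 probe 9004 gave -0.19 on array 4 of tra against female heads, with the other arrays between -0.54 and -0.51. Nmdar1 gave 0.11 on array 6 of fru w12/Cham5 against w; Berlin heads, with the other w12/Cham5 arrays between -0.30 and -0.24.

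The other flagged results are effects that differed between 2 sets of arrays by limma's test of the difference. Between CNS and heads, the female over male ratio of 5-HT2B differed by -2.475 and the fru mutant over wild-type ratio of Rdl probe 2919 by 1.34. Between fru 4-40/p14 and fru w12/Cham5 heads, the difference was -1.27 for 5-HT2B, -0.93 for Shab, -0.87 for Rdl probe 2919, -0.72 for Shaw probe 8398, -0.69 for Irk2 probe 4058 and -0.64 for eag. It was -0.58 for Dop1R1, -0.57 for nAChRalpha3, -0.54 for Nmdar2, -0.51 for nAChRalpha4, -0.49 for para and -0.32 for slo, and 0.70 and 0.39 for 5-HT2A probes 10393 and 540.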

How the results depend on the processing

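The count of called members depended on the settings. A call needs a mean far from 0 for its error, so the sign of a called member could hardly turn when 1 array was left out. Of 56 calls, those of differences included, 56 kept their sign with each array left out in turn, 17 stayed called throughout, 32 were lost for some array and 9 could not be tested for some array, some calls being both; with a dye term 56 were called. The ranges of called members with 1 array left out were 1 to 11 for the head sex difference, 0 to 1 for CNS, 1 to 4 for tra, 0 to 1 for dsxD, 3 to 7 for XX and 4 to 16 for XY nulls, 1 to 6 for fru heads and 0 for fru CNS. They were 0 to 1 (sex) and 1 to 2 (fru) for CNS less heads, 7 to 13 between fru alleles, 0 to 1 for tra less dsxD and 0 for XX less XY. Calls among all probes moved as well when 1 array was left out. They ran from 319 to 1116 for the head sex difference and from 1031 to 1692 for XY nulls. With a dye term the calls became 10 for head sex, 8 for tra, 6 for dsxD, 20 and 28 for XX and XY nulls, 6 for fru heads, 2 for fru CNS, 2 for fru CNS less heads and 26 between fru alleles. With a value required on every array they were 0 for CNS sex, 1 for dsxD and 0 for sex CNS less heads. By the methods' t-test they were 0 for CNS sex, tra, dsxD and fru CNS, 3 for XX and 6 for XY nulls. Canton-S heads alone gave 0 and Berlin heads alone 1. For fru heads, 4-40/p14 alone gave 20 and w12/Cham5 alone 6. For fru CNS, each combination alone gave 24, where dye and strain cannot be told apart from the allele. No share of all probes stands beside these member counts, so they compare settings and do not set the members against the array. With a replicate block the fru CNS less heads call was lost (0; Rdl 1.44, adjusted p = 0.303), the sex CNS less heads count stayed at 1, and tra less dsxD and XX less XY stayed at 0; with an allele term fru CNS less heads had 2. The replicate block changed no other call.

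Signs turned for 5-HT2B in head sex, near 0 at -0.03, which was 0.0825 in Canton-S alone, and ran between -0.16 and 0.05 with 1 array left out (0.04 without Canton-S array 4 and 0.0505 without Berlin array 8). Rdl probe 3259 in the fru CNS was 0.25 in w12/Cham5 alone, against -0.13 overall. The causes were not tested. Single probes, 4 arrays per mutant and missing values limit every statement here.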

Other observations

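GluRS-m, the mitochondrial glutamyl-tRNA synthetase caught by the prefix GluR, was called in no comparison. Its mean log2 ratio was 0.20 in tra pseudomale against female heads (limma adjusted p = 0.474) and 0.26 in fru mutant against wild-type male CNS (adjusted p = 1).

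Some members had values on single arrays only. Probe 10346 of 5-HT2B gave 0.70 and -1.01 on the 2 arrays of XY dsx null against male heads that measured it, and probe 8115 gave -0.64 on the 1 measured array of female against male heads.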
